A study of Mus musculus with 12 samples.

Results

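The response to lipopolysaccharide (LPS) of peritoneal macrophages that lack Nfkbiz was described from 3 arrays of LPS-treated Nfkbiz-/- cells and 3 arrays of untreated Nfkbiz-/- cells. These are 6 of the 12 arrays of the series, chosen by their titles, and they were read over 19938 genes, each through the probe set of highest mean level that carries a single gene symbol. All samples were of female mice. Cells were rinsed out of the peritoneal cavity, plated for 2 h with no sort named in the labels, and then left alone or given LPS at 1 µg/ml for 4 h. The other 6 arrays, of wild-type C57Bl/6 cells with and without the same LPS treatment, share the fit and serve as the comparison for the response. The labels give the knockout only as Nfkbiz-/-, with neither the allele nor the deleted part, which the untreated and the LPS-treated cells share. Whether a group's arrays stem from different mice is left unsaid in the labels. The p-values then reflect the spread among these samples alone, and that spread may be technical.

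Nfkbiz encodes IκBζ, a nuclear member of the IκB family that macrophages make when Toll-like receptors are engaged and that acts at promoters together with NF-κB. LPS is sensed through TLR4, whose MyD88 branch drives NF-κB and MAP kinase signalling and whose TRIF branch drives IRF3 and type I interferon, which in turn switches on interferon-stimulated genes. The comparison asks which of these programmes LPS still raises or lowers in cells without IκBζ.

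The deposited intensities are on a linear scale. Levels are given as intensity on single arrays, differences as log2 of LPS over untreated with their standard error (SE) from limma. A gene is called where its Benjamini-Hochberg adjusted p over all 19938 genes was under 0.05. Levels of different genes are not compared, since each probe set has its own brightness. Array medians lay between 110.4 and 118.7, arrays of 1 group correlated at 0.982 to 0.996, and the number of arrays limits the precision. The probe set of Nfkbiz itself read 267, 286 and 274 on the untreated knockout arrays and 1568, 1335 and 1634 on the LPS-treated ones (log2 difference 2.45, SE 0.10, adjusted p = 2.41e-08). The signal of the disrupted gene thus still rose 5.47-fold, and its position against the deleted part is unknown here. It is no check of the deletion. Of the markers of the labelled cell type, all 9 read above the median of all genes on a knockout array. The same held for 6 of 8 B cell, 7 of 8 mast cell, 5 of 8 dendritic cell, 1 of 8 T cell, 0 of 7 NK cell, 1 of 8 neutrophil and 1 of 5 eosinophil markers. It also held for 4 of 10 mesothelial and fibroblast and 1 of 3 platelet and erythroid markers. This is a coarse reading: a single array above the median suffices, brightness differs by probe set, and the share of all genes is not given.

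The knockout arrays differed among themselves in 2 ways that touch the results. Both arrays numbered 2, untreated and LPS-treated, stood apart from the others: 75 genes differed at least 2-fold in the same direction from the other 2 arrays of their group in both treatments (23 higher, 52 lower), against 2 such genes for the arrays numbered 1 and 19 for those numbered 3. Chil1, a chitinase-like protein of macrophages, read 68.1, 2356 and 65.6 on untreated arrays 1 to 3 and 82.5, 10200 and 74.4 on LPS arrays 1 to 3. Hal, which encodes histidine ammonia-lyase, read 115, 4709 and 187 and then 116, 3812 and 140. Hal also varied among wild-type arrays (5136, 236 and 4013 untreated, 148, 106 and 2293 with LPS). Arginase gene Arg1 read 7377, 1215 and 9063 and then 3150, 387 and 4040, and Pdpn, which encodes podoplanin, 1264, 142 and 1817 and then 6159, 368 and 6127. Arrays numbered 2 were thus high for the first pair of genes and low for the second in both treatments. Set against wild type, arrays numbered 2 were not always the ones apart. Cyp11a1 read 652, 61.2 and 779 untreated and 589, 62.0 and 879 with LPS, against 55.6 to 72.0 on wild-type arrays. Ephx2, Sparc and Htra1 showed the same pattern, with arrays 1 and 3 above wild type. On Chil1, Arg1 and Pdpn, arrays 1 and 3 read closer to wild type than arrays numbered 2 did. Mast cell markers also differed by number. The mean log2 level of the 8 measured was 7.49, 7.02 and 8.13 without LPS and 8.16, 7.10 and 8.68 with LPS. Wild-type arrays spanned 7.04 to 7.15 without LPS and 7.38 to 7.80 with it. Of the 8, 1 rose in knockout cells (the histidine decarboxylase gene Hdc, also made by activated macrophages, by 3.91) and none fell. The part of these differences in the results was not tested, and list counts are given again without these or other single arrays where they move by more than 1.5 times, with some smaller moves.

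**Figure D1:**
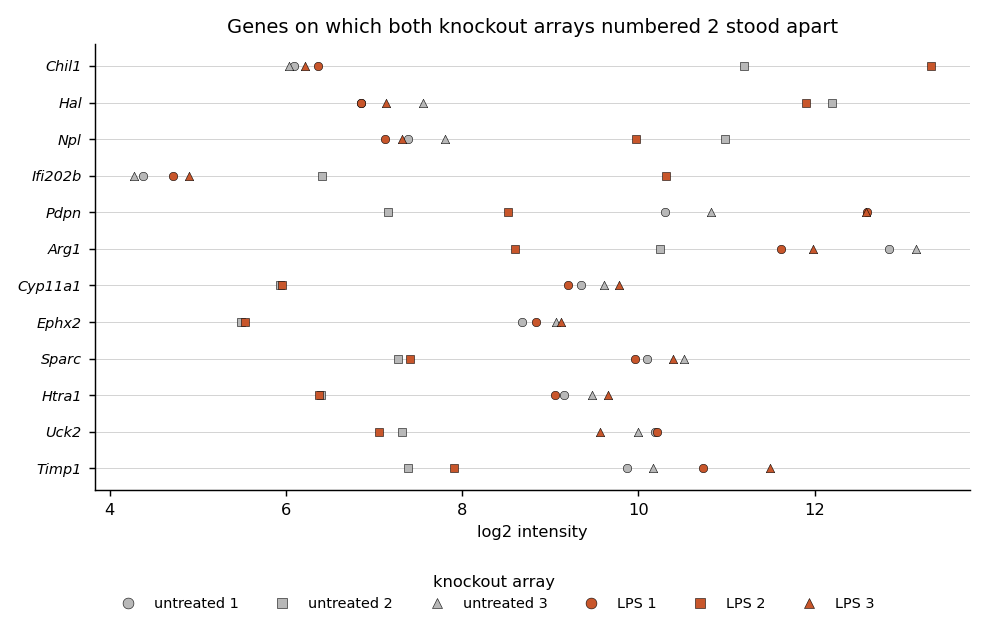
Log2 intensity of 12 genes on the 6 knockout arrays; grey marks are untreated and orange marks LPS-treated, with circles, squares and triangles for arrays 1, 2 and 3. The squares lie away from the other marks of both colours, higher for Chil1, Hal, Npl and Ifi202b and lower for the other 8 genes.

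The second difference was in the interferon programme. On all 22 measured antiviral genes, all 6 interferon-inducible GTPase genes and all 7 Schlafen genes, untreated array 3 gave the highest of the 3 untreated readings, while it was highest for 5806 of the 19938 genes tested. The mean log2 level of the antiviral genes was 9.15, 8.85 and 10.50 on untreated arrays 1 to 3 and 12.13, 12.12 and 12.32 on LPS arrays 1 to 3. Before LPS, knockout array 3 was therefore partway up the range, while the 3 treated knockout arrays lay within 0.20 of each other. Wild-type arrays, which share the fit, spread more with LPS: the same mean was 11.26, 12.05 and 9.72 on arrays 1 to 3. The GTPase mean was 10.29, 11.51 and 8.95 there, and the Schlafen mean 11.08, 11.72 and 9.84. All groups share 1 estimate of the spread, so this enters the SE of knockout interferon responses. With all arrays, 20 of the 22 antiviral genes rose. The count was 21 without wild-type LPS array 3, and also without wild-type LPS array 2 or knockout untreated array 3.

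Promoter letters were read for 15563 of the tested genes in the 250 bases before each RefSeq start (GRCm38.p6). They are shown for interferon-stimulated, NF-κB feedback and chemokine genes named below, to set the letters beside the response, and the capitals mark every match in the window shown. The first set carries the interferon-stimulated response element, searched on both strands as GAAA repeated after a gap of any 2 bases.
Rsad2: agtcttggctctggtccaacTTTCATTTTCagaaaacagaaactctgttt
Ifit1: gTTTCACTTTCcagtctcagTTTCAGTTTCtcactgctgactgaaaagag
Gbp5: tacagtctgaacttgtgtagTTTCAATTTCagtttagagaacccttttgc
Gbp3: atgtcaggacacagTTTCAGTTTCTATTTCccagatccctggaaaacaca
Irgm1: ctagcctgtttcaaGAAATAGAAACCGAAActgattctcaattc
These stretches lie at chr12:26456543-26456592, minus strand (Rsad2), chr19:34640784-34640833, plus strand (Ifit1), chr3:142496749-142496798, plus strand (Gbp5), chr3:142559985-142560034, plus strand (Gbp3) and chr11:48871421-48871464, minus strand (Irgm1), each upstream of the start and read along its gene's strand.

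Of the 16 antiviral genes with a window, 6 held these letters, as did 4 of 4 GTPase genes, against 3.4% of all genes. They were in 19 of the 100 most raised genes and 2 of the 100 most lowered. The 100 most raised genes had 1.25 windows each on average and the 100 most lowered 1.32, against 1.23 for all genes. The second set carries the κB consensus, on either strand.
Tnfaip3: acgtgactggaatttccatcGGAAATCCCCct
Tnip1: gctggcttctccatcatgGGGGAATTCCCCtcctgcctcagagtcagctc
Nfkbid: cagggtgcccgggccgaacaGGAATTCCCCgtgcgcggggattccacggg
Tnip3: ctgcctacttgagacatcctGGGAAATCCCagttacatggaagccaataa
Cxcl10: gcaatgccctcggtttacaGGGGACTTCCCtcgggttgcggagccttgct
Cxcl1: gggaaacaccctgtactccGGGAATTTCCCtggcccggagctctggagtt
Cxcl2: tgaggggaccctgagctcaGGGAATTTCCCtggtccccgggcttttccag
They lie at chr10:19015411-19015442, minus strand (Tnfaip3), chr11:54962967-54963016, minus strand (Tnip1), chr7:30422205-30422254, plus strand (Nfkbid), chr6:65590324-65590373, plus strand (Tnip3), chr5:92348963-92349012, minus strand (Cxcl10), chr5:90891155-90891204, plus strand (Cxcl1) and chr5:90903783-90903832, plus strand (Cxcl2). The consensus was in 9 of 16 NF-κB feedback genes with a window and in 4 of 10 CXC chemokine genes, against 9.48% of all genes, 19 of the 100 most raised and 9 of the 100 most lowered. Among CC chemokine genes it was in 1 of 6 with a window, Ccl9 (log2 difference 0.22), and the interferon letters were in 0. The AP-1 letters TGANTCA were in 19 of the 100 most raised genes and 6 of the 100 most lowered, against 7.11% of all. The cyclic AMP element TGACGTCA was in 3 and 0, against 2.34%. The interferon letters did not stand alone in the antiviral list: the κB consensus was also in 6 of its 16 genes with a window, and the AP-1 letters in 5. Motifs overlap in part of the windows, and a match is a description of letters: Tnip3 fell although its window holds the κB letters, and Cxcl14, which fell too, holds the interferon letters.

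LPS changed 9105 of the 19938 genes in knockout cells, 45.7% of those tested: 4365 (21.9%) rose and 4740 (23.8%) fell. By at least 2-fold, 665 rose (3.34%) and 1165 fell (5.84%). The split depends on brightness. Among the 9969 brighter genes, 2152 rose and 4094 fell, with a median log2 difference of -0.17, and among the dimmer genes 2213 rose and 646 fell, with a median of 0.13 and only 50 and 104 past 2-fold. Higher genes made up 47.9% of calls on the values as deposited, 49.3% after quantile normalization, 39% after centring arrays on their median and 76.6% after centring on the 75th percentile, which moves the median of all genes from 0.07 to 0.28. The medians of 9 lists turned from negative to positive under that centring: MHC class II, complement, acute-phase, Fc receptor, NRF2, unfolded protein, tRNA synthetase, ribosome biogenesis and cell cycle control. In RNA of whole cultures, a smaller number of cells of a type and less RNA per cell cannot be told apart.

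**Figure D2:**
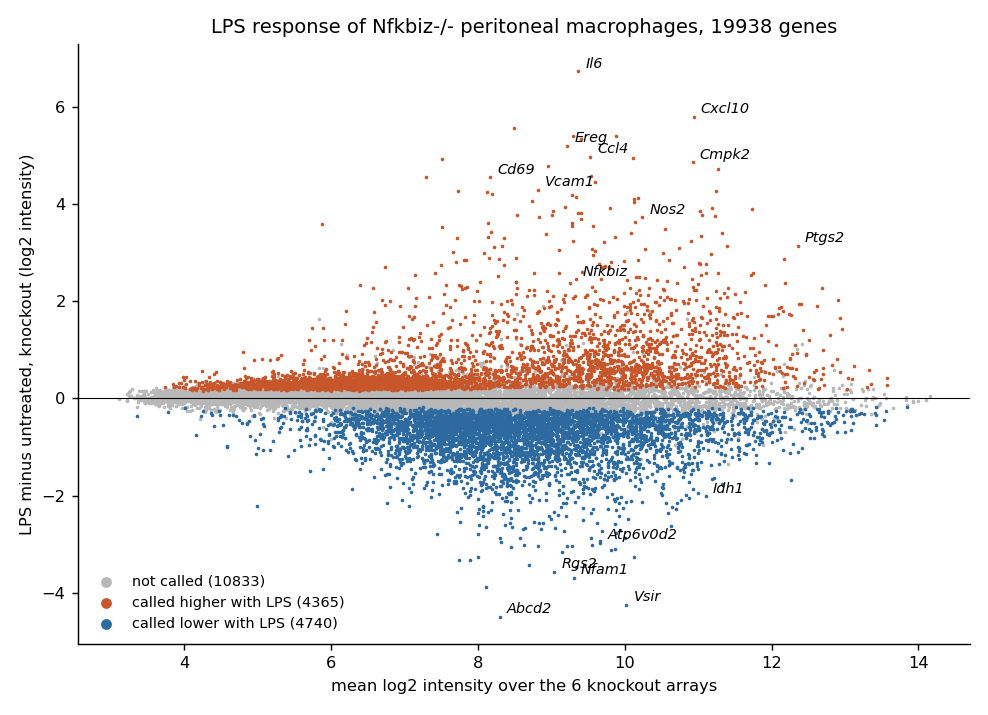
LPS minus untreated log2 intensity in knockout cells (vertical axis) against the mean log2 intensity of each gene over the 6 knockout arrays (horizontal axis), 1 point per gene, 19938 in all. Orange points are called higher (4365), blue points lower (4740) and grey points not called; the highest differences lie at middle and high levels, from Il6 at 6.73 to Abcd2 at -4.48.

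The 20 most raised genes mixed cytokines, chemokines and interferon-stimulated genes. Il6, the acute-phase cytokine, read 72.6, 39.6 and 91.2 without LPS and 7572, 4514 and 9119 with it (log2 difference 6.73, SE 0.34, adjusted p = 1.2e-07). Epiregulin, an EGF receptor ligand encoded by Ereg, went from 92.8, 103 and 100.0 to 5283, 2240 and 4003 (log2 difference 5.20, SE 0.24, adjusted p = 6.74e-08). Cd69, an early activation marker of leukocytes, went from 61.4, 52.6 and 65.6 to 1359, 1093 and 1818 (log2 difference 4.54, SE 0.39, adjusted p = 3.81e-06). In none of the 20 did the groups overlap, but these genes were picked for the largest differences. Over all genes tested, all LPS arrays read above all untreated ones for 28.3% and below them for 25.5%. LPS array 2 read lowest of the treated arrays for Il6, Ereg and Cd69. Il1f6, an IL-1 family cytokine now called IL-36α, spread widest among the treated arrays: 1370, 302 and 1919, from 40.3, 49.6 and 56.2 (log2 difference 4.26, SE 0.51, adjusted p = 4.91e-05).

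The 20 most lowered genes included surface receptors, signalling regulators and metabolic enzymes. Vsir, the inhibitory receptor VISTA, read 4768, 4380 and 4452 before and 225, 265 and 229 after LPS (log2 difference -4.25, SE 0.12, adjusted p = 1.68e-09), a 19.0-fold fall. Abcd2, which imports very long-chain fatty acids into peroxisomes, fell from 1440, 1425 and 1605 to 64.8, 76.6 and 59.4 (log2 difference -4.48, SE 0.15, adjusted p = 9.03e-09). Cebpa, the myeloid lineage factor C/EBPα, fell from 1690, 2071 and 1406 to 246, 195 and 189 (log2 difference -3.03, SE 0.13, adjusted p = 5.34e-08). The array readings lay closest together for Rab11fip5, a Rab11-binding trafficking protein, which read 2141, 2068 and 2191 and then 262, 269 and 258 (log2 difference -3.02, SE 0.07, adjusted p = 1.05e-09). Also among the 20 were Slc43a2, an amino acid transporter (-3.46), Mtss1, which shapes membranes and actin (-3.42), Ednrb, the endothelin B receptor (-3.26), Dhrs3, a retinal reductase (-3.16), and Sesn1, a stress-induced inhibitor of mTORC1 (-3.00).

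**Figure D3:**
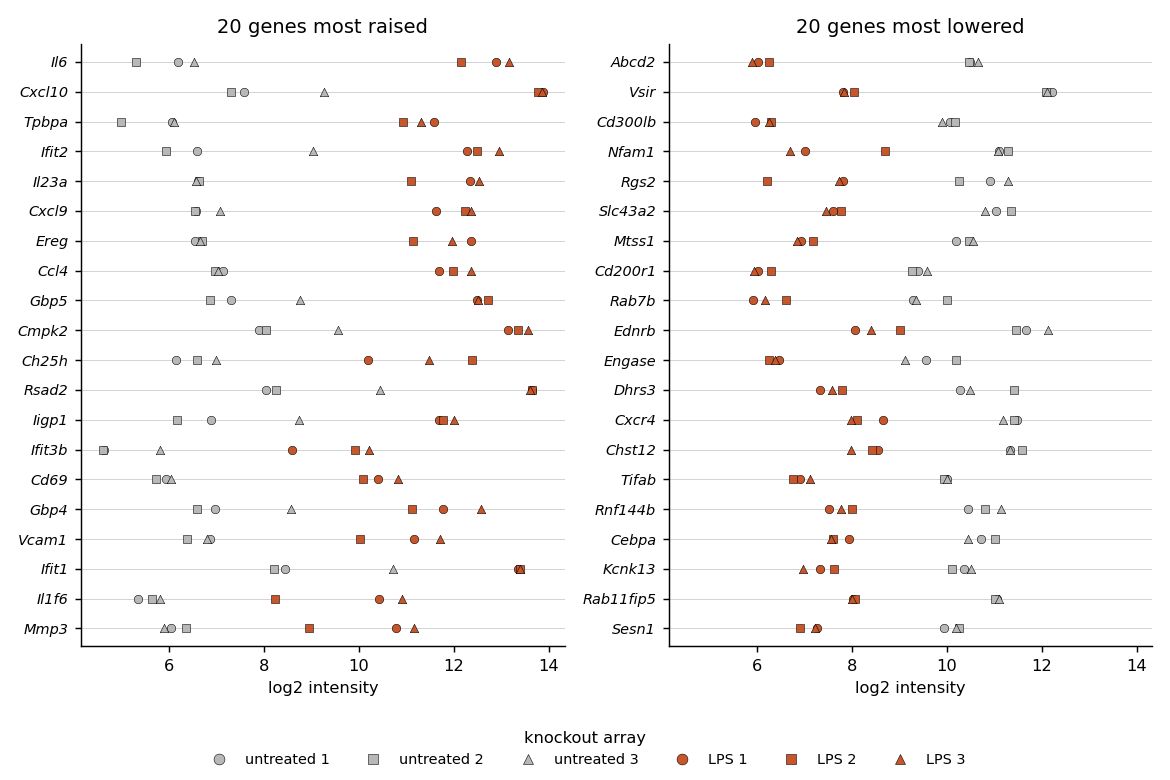
Log2 intensity on each of the 6 knockout arrays for the 20 genes most raised (left) and the 20 most lowered (right) by LPS; grey is untreated, orange LPS-treated, and the shape gives the array number. The colours do not overlap for any of the 40 genes, which were picked for the largest differences. The grey triangle of untreated array 3 lies toward the treated marks for interferon-stimulated genes such as Ifit2, Rsad2 and Ifit1.

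The programmes were then read through 47 gene lists, in which 697 of 764 entries were measured. For each list the number of members called is set beside the shares of all genes that rose (21.9%) and fell (23.8%) and beside the median of all genes, 0.07. The mean log2 level of each list lay above the median of all genes, 7.17, on the knockout arrays. Falls were more common at such levels: of the 9969 brighter genes, 2152 rose and 4094 fell. Shares that fell of 38.9% to 50% lay near that, as in the G-protein, cell cycle control, large peritoneal macrophage, lineage, glycolysis and CD300 lists.

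**Figure D4:**
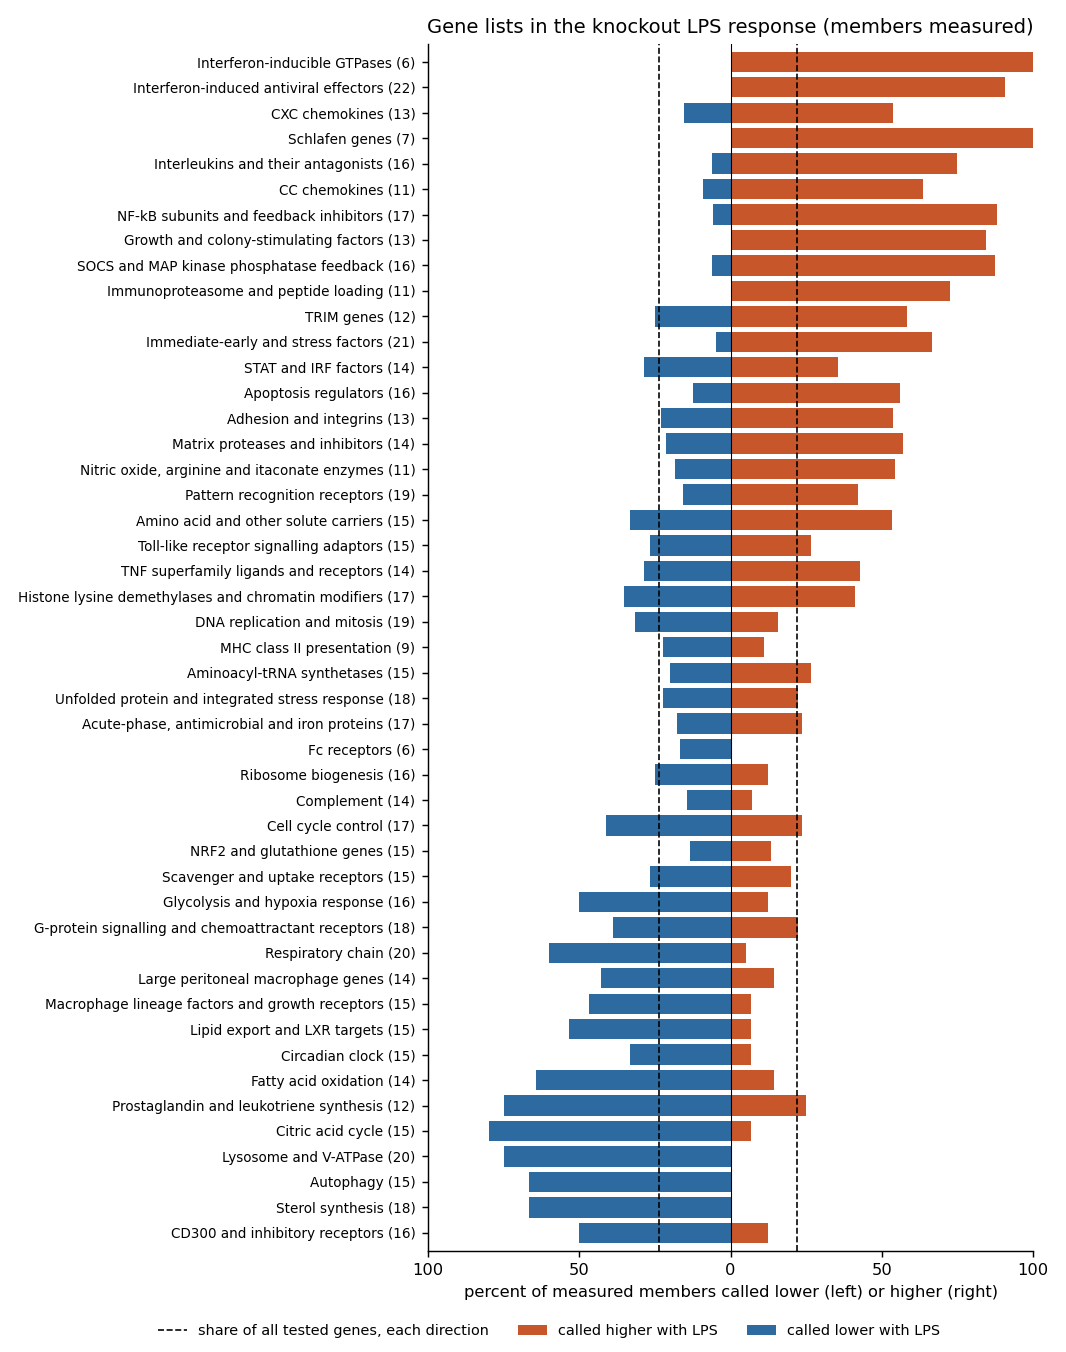
Percent of the measured members of each of 47 gene lists that were called higher (orange, right) or lower (blue, left) with LPS in knockout cells, ordered by the list's median difference; the number of measured members is in brackets. Dashed lines give the shares of all 19938 genes, 21.9% higher and 23.8% lower. Among the 9969 brighter genes, 2152 were called higher and 4094 lower. The GTPase and Schlafen lists are called higher throughout, and the lysosome, autophagy and sterol lists have no member called higher.

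Cytokine ligands rose widely without IκBζ. Of 16 interleukin genes and antagonists, 12 rose, 1 fell and 3 were not called, with a median of 1.68. Il27, a subunit of a cytokine that shapes T cell responses, read 338, 202 and 309 and then 3592, 5047 and 5161 (log2 difference 4.04, SE 0.32, adjusted p = 2.32e-06). Il15, which supports NK and memory T cells, read 242, 270 and 499 and then 3017, 4683 and 4372 (log2 difference 3.63, SE 0.61, adjusted p = 0.000522). In both, LPS array 1 was the lowest of the treated arrays. Il12a, the p35 subunit of IL-12, rose as well (2.40, SE 0.17, adjusted p = 1.31e-06), and Il16, a T cell chemoattractant, fell from 137, 128 and 125 to 89.3, 100 and 98.1 (log2 difference -0.44, SE 0.07, adjusted p = 0.000496).

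Of 13 growth and colony-stimulating factor genes, 11 rose, 0 fell and 2 were not called (median 1.16); without LPS array 2 or both arrays numbered 2, 1 fell. Inhba, the activin A subunit, went from 870, 236 and 1355 to 12460, 4405 and 12520 (log2 difference 3.76, SE 0.56, adjusted p = 0.000235), with arrays numbered 2 lowest in both groups. Osm, encoding oncostatin M, went from 604, 441 and 790 to 4950, 1316 and 5162 (log2 difference 2.44, SE 0.43, adjusted p = 0.000718). Csf3, encoding G-CSF, reached 607, 133 and 1525 from 107, 101 and 102 (log2 difference 2.26, SE 0.61, adjusted p = 0.0107), so LPS array 2 stayed near the untreated level. Its call was lost in a fit of the 6 knockout arrays alone. Csf2, encoding GM-CSF, read 30.7, 32.6 and 31.2 before and only 38.5, 43.3 and 52.2 after LPS (log2 difference 0.49, SE 0.11, adjusted p = 0.0028), near the bottom of the intensity range.

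The TNF superfamily moved in both directions. Of 14 genes, 6 rose, 4 fell and 4 were not called, with a median of 0.09. Tnf itself went from 708, 1505 and 640 to 10630, 18090 and 11890 (log2 difference 3.90, SE 0.30, adjusted p = 1.93e-06). Tnfsf15, encoding TL1A, went from 123, 158 and 138 to 1683, 2094 and 1920 (log2 difference 3.76, SE 0.25, adjusted p = 7.16e-07). Tnfsf9, encoding 4-1BB ligand, went from 309, 165 and 402 to 1881, 2617 and 1923 (log2 difference 2.95, SE 0.26, adjusted p = 5.52e-06). The costimulatory receptor gene Cd40 rose from 616, 708 and 659 to 5417, 7815 and 7070 (log2 difference 3.34, SE 0.17, adjusted p = 1.17e-07). Tnfrsf21, encoding death receptor 6, fell from 2874, 2928 and 2723 to 881, 678 and 677 (log2 difference -1.94, SE 0.11, adjusted p = 2.93e-07) and Ltbr, encoding the lymphotoxin β receptor, fell by a smaller step (-0.58, SE 0.07, adjusted p = 7.26e-05). Tnfsf14, encoding LIGHT, read 901, 117 and 1018 before LPS, so untreated array 2 was already low, and 116, 82.4 and 106 after (log2 difference -2.25, SE 0.61, adjusted p = 0.0108). The call was lost in a fit of the 6 knockout arrays alone.

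Chemokines followed the cytokines. The CC family (11 measured, median 1.55) had 7 members that rose and 1 that fell. The CXC family (13 measured, median 2.07) had 7 that rose and 2 that fell. Ccl4, encoding the chemokine MIP-1β, read 140, 124 and 131 and then 3288, 4055 and 5294 (log2 difference 4.97, SE 0.16, adjusted p = 4.65e-09). Ccl5, encoding RANTES, read 4216, 3295 and 4004 and then 15330, 15710 and 15360 (log2 difference 2.02, SE 0.15, adjusted p = 1.86e-06). Cxcl1, an attractant of neutrophils, read 736, 370 and 700 and then 9272, 5724 and 9079 (log2 difference 3.77, SE 0.25, adjusted p = 7.34e-07). The interferon-inducible T cell attractants Cxcl9 and Cxcl10 stand among the most raised genes: Cxcl9 went from 95.0, 93.2 and 135 to 3171, 4801 and 5244 (log2 difference 5.34, SE 0.54, adjusted p = 1.34e-05). Ccl6 fell from 1970, 1520 and 2860 to 913, 774 and 1414 (log2 difference -1.03, SE 0.28, adjusted p = 0.0111). Cxcl14, a chemokine with homeostatic expression, fell from 948, 763 and 814 to 544, 380 and 476 (log2 difference -0.86, SE 0.19, adjusted p = 0.00326). The CC genes that rose numbered 5 without both arrays numbered 2 and 4 in a fit of the 6 knockout arrays alone. Without LPS array 2, 2 CC genes fell and 1 CXC gene did, as did 1 CXC gene without untreated array 3. Ccl17 and Ccl22, ligands of CCR4, read lowest on arrays numbered 2 in both groups; Ccl22 went from 819, 300 and 855 to 3113, 974 and 2622 (log2 difference 1.75, SE 0.47, adjusted p = 0.0105).

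Negative feedback genes were raised with the ligands. Of 17 NF-κB subunit and feedback genes, 15 rose, 1 fell and 1 was not called (median 1.30). Tnfaip3, which encodes the ubiquitin-editing enzyme A20, read 951, 1138 and 945 and then 6405, 5411 and 6387 (log2 difference 2.59, SE 0.10, adjusted p = 2.41e-08). Its partner Tnip1 read 714, 533 and 600 and then 2446, 2160 and 2440 (log2 difference 1.94, SE 0.15, adjusted p = 1.93e-06). Nfkbid, encoding IκBNS, the nuclear IκB protein closest in kind to IκBζ, read 680, 608 and 461 and then 1962, 1724 and 2443 (log2 difference 1.81, SE 0.16, adjusted p = 5.17e-06). Zc3h12a, encoding the RNase Regnase-1 that degrades Il6 and other cytokine messages, went from 700, 674 and 758 to 2764, 1896 and 2876 (log2 difference 1.80, SE 0.13, adjusted p = 1.6e-06). None of these groups overlapped. All LPS arrays read above all untreated ones for 15 of the 17 genes, against 28.3% of all genes. Tnip3 moved the other way, from 503, 720 and 530 to 292, 504 and 295 (log2 difference -0.71, SE 0.23, adjusted p = 0.0259); the groups overlapped and its call was lost without LPS arrays 1 and 3 or untreated array 2 (adjusted p up to 0.0944), under quantile normalization, under 75th percentile centring (adjusted p = 0.0581) and in a fit of the 6 knockout arrays alone.

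Of 16 SOCS and MAP kinase phosphatase genes, 14 rose, 1 fell and 1 was not called (median 1.07). Dusp4, a nuclear phosphatase of ERK, rose from 187, 235 and 183 to 913, 1040 and 864 (log2 difference 2.22, SE 0.17, adjusted p = 1.63e-06). Dusp16, which acts on JNK and p38, rose from 631, 686 and 882 to 2772, 2300 and 3284 (log2 difference 1.93, SE 0.16, adjusted p = 3.29e-06). Cish, an inhibitor of cytokine receptor signalling, rose from 473, 344 and 541 to 2051, 1459 and 2206 (log2 difference 2.08, SE 0.22, adjusted p = 1.69e-05). The member that fell was Dusp7 (3670, 2942 and 2893 to 1577, 1838 and 1872; log2 difference -0.84, SE 0.11, adjusted p = 8.79e-05). Of 21 immediate-early and stress factor genes, 14 rose, 1 fell and 6 were not called (median 0.64), led by Maff, a small MAF protein, which went from 112, 128 and 109 to 924, 804 and 816 (log2 difference 2.87, SE 0.15, adjusted p = 1.48e-07), and Nr4a3, an orphan nuclear receptor (2.58, SE 0.47, adjusted p = 0.000906). Egr2, a zinc finger factor of resident macrophages, fell from 2322, 3860 and 1784 to 817, 1321 and 843 (log2 difference -1.38, SE 0.29, adjusted p = 0.00254).

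Interferon-stimulated genes rose in nearly every member. Of 22 antiviral genes, 20 rose, 0 fell and 2 were not called, with a median of 2.31 and a range of 0.19 to 5.40. Rsad2, encoding viperin, read 262, 305 and 1402 and then 12840, 12910 and 12500 (log2 difference 4.72, SE 0.71, adjusted p = 0.000238). Ifit2, which binds viral RNA, read 95.7, 61.4 and 520 and then 4962, 5768 and 7964 (log2 difference 5.40, SE 1.04, adjusted p = 0.00136). In both genes untreated array 3 stood well above the other untreated arrays, and the groups did not overlap. Of the 6 GTPase genes, which act against intracellular bacteria and parasites, 6 rose (median 3.97): Gbp5 from 157, 116 and 435 to 5764, 6748 and 5865 (log2 difference 4.94, SE 0.46, adjusted p = 7.93e-06), Gbp3 from 441, 274 and 738 to 4667, 4919 and 5516 (log2 difference 3.49, SE 0.46, adjusted p = 8.84e-05) and Iigp1 from 118, 71.4 and 424 to 3291, 3492 and 4128 (log2 difference 4.57, SE 0.89, adjusted p = 0.0015). Of 7 Schlafen genes, which regulate lymphocyte and myeloid growth, 7 rose (median 1.94), among them Slfn9 (147, 102 and 362 to 2215, 2203 and 3049; log2 difference 3.81, SE 0.57, adjusted p = 0.000241). Without both arrays numbered 2, 16 antiviral, 6 GTPase and 3 Schlafen genes were called; that fit keeps untreated array 3 and a single other untreated array.

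The factors and sensors of the interferon pathway split. Of 14 STAT and IRF genes, 5 rose, 4 fell and 5 were not called. Stat2, part of the complex that reads interferon response elements, rose from 1147, 882 and 2329 to 4803, 3987 and 5231 (log2 difference 1.80, SE 0.36, adjusted p = 0.00191). Irf1 rose from 1678, 1411 and 1948 to 4543, 7170 and 5455 (log2 difference 1.76, SE 0.27, adjusted p = 0.000267). Stat4 rose too (2.20, SE 0.34, adjusted p = 0.000296). Irf8, a lineage factor of macrophages, fell from 2218, 2427 and 2158 to 836, 1540 and 1031 (log2 difference -1.04, SE 0.18, adjusted p = 0.000788), as did Stat5b (-0.91, SE 0.07, adjusted p = 3.01e-06), Irf3 (-0.57, SE 0.09, adjusted p = 0.000356) and Stat6 (-0.50, SE 0.09, adjusted p = 0.000976). Irf7 was not called: untreated array 3 already read within the treated range (2683, 2434 and 7690, against 7467, 7266 and 9618; adjusted p = 0.116), and without that array it was called.

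Of 19 pattern recognition receptor genes, 8 rose, 3 fell and 8 were not called, and of 15 Toll-like receptor adaptor genes, 4 rose, 4 fell and 7 were not called. The adaptor share of 26.7% in each direction lay near the shares of all genes (21.9% and 23.8%). Without untreated array 3, 7 adaptor genes rose, and under 75th percentile centring 10 did. Nlrp3, the inflammasome sensor, went from 846, 757 and 812 to 5568, 5012 and 5794 (log2 difference 2.76, SE 0.09, adjusted p = 7.64e-09). Nod2, a sensor of bacterial cell-wall fragments, went from 187, 194 and 258 to 732, 722 and 793 (log2 difference 1.83, SE 0.12, adjusted p = 7.25e-07). Tlr13, a sensor of bacterial ribosomal RNA, fell from 3452, 3532 and 3851 to 615, 1207 and 808 (log2 difference -2.10, SE 0.19, adjusted p = 6.2e-06). Ly96, which encodes MD-2, the LPS-binding partner of TLR4, fell from 4356, 4683 and 4659 to 3071, 3691 and 2831 (log2 difference -0.52, SE 0.10, adjusted p = 0.00104). Among adaptors, Irak2 rose (1.38, SE 0.09, adjusted p = 6e-07) and Irak1 fell (-0.84, SE 0.12, adjusted p = 0.000238). Myd88 rose from 2899, 2717 and 3084 to 4675, 5090 and 5185 (log2 difference 0.78, SE 0.10, adjusted p = 6.82e-05). Ticam2, encoding TRAM, the adaptor that links TLR4 to the TRIF branch, fell from 579, 739 and 543 to 221, 411 and 179 (log2 difference -1.28, SE 0.25, adjusted p = 0.00171).

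Of 12 TRIM genes, a family of ubiquitin ligases with antiviral members, 7 rose, 3 fell and 2 were not called (median 0.81). Trim21, the cytosolic antibody receptor, rose from 415, 410 and 639 to 2270, 2667 and 3259 (log2 difference 2.50, SE 0.35, adjusted p = 0.00014). Trim30a rose from 2116, 1587 and 4089 to 7636, 7810 and 8358 (log2 difference 1.73, SE 0.34, adjusted p = 0.00148), while Trim8 fell (-0.87, SE 0.12, adjusted p = 0.000167). Without both arrays numbered 2, 5 rose and 2 fell, and without LPS array 3, 1 fell. Of 11 immunoproteasome and peptide-loading genes, 8 rose, 0 fell and 3 were not called (median 0.90). Tap2, a peptide transporter subunit, went from 616, 567 and 627 to 1699, 1686 and 2077 (log2 difference 1.59, SE 0.15, adjusted p = 8.63e-06). Nlrc5, the transactivator of MHC class I genes, went from 1282, 956 and 1419 to 3660, 3607 and 4101 (log2 difference 1.65, SE 0.23, adjusted p = 0.000144). In the MHC class II list, of 9 members, 1 rose, 2 fell and 6 were not called; 2 rose without LPS array 2, untreated array 3 or both arrays numbered 2, and 1 fell without LPS array 1. The costimulatory ligand Cd80 rose from 1287, 1352 and 1466 to 5055, 3040 and 5053 (log2 difference 1.64, SE 0.17, adjusted p = 1.8e-05). H2-DMa, which loads peptides on class II, fell from 1759, 1555 and 1745 to 739, 774 and 799 (log2 difference -1.13, SE 0.08, adjusted p = 1.59e-06). The median of this list was -0.01 on the values as deposited and turned positive under quantile normalization (0.01) and 75th percentile centring (0.20).

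Effector enzymes of activated macrophages were raised by large steps in a few members. Of 11 nitric oxide, arginine and itaconate genes, 6 rose, 2 fell and 3 were not called. Nos2, the inducible nitric oxide synthase, read 488, 106 and 700 and then 5708, 2505 and 5886 (log2 difference 3.73, SE 0.63, adjusted p = 0.000585), with arrays numbered 2 lowest in both groups. Gch1, which makes the cofactor of that enzyme, read 375, 368 and 411 and then 1445, 1164 and 1624 (log2 difference 1.86, SE 0.18, adjusted p = 9.57e-06). Acod1, which makes itaconate, read 4028, 4694 and 4556 and then 13720, 14450 and 13610 (log2 difference 1.66, SE 0.12, adjusted p = 1.15e-06). Ncf1, a subunit of the phagocyte oxidase, fell from 3822, 3715 and 3802 to 1559, 2830 and 1157 (log2 difference -1.13, SE 0.25, adjusted p = 0.00313). Arg1 was not called (-1.35, SE 0.83, adjusted p = 0.202), with both arrays numbered 2 low as given above; without them it was called at a difference of -1.20 (adjusted p = 5.89e-05). It read lower with LPS at each array number, and with the replicate block within genotype it was called (adjusted p = 1.14e-05).

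Genes of eicosanoid synthesis were all called, and most fell. Of 12 genes, 3 rose, 9 fell and 0 were not called, with a median of -0.52. Ptgs2, the inducible cyclooxygenase, went from 2480, 849 and 2625 to 16520, 14640 and 15520 (log2 difference 3.14, SE 0.32, adjusted p = 1.43e-05). Ptges, the microsomal prostaglandin E synthase, went from 5378, 3807 and 4456 to 11730, 10300 and 11420 (log2 difference 1.31, SE 0.13, adjusted p = 1.34e-05). Alox5, which starts leukotriene synthesis, fell from 2391, 2492 and 2327 to 1293, 1129 and 1174 (log2 difference -1.0, SE 0.12, adjusted p = 4.92e-05). Lta4h, which makes leukotriene B4, fell from 690, 662 and 715 to 320, 251 and 316 (log2 difference -1.23, SE 0.15, adjusted p = 6.41e-05). Tbxas1, the thromboxane synthase, fell from 1441, 1593 and 1854 to 480, 575 and 760 (log2 difference -1.45, SE 0.15, adjusted p = 1.47e-05). These groups did not overlap on any of the 5 genes. Of the 12, all LPS arrays read above all untreated ones for 25% and below them for 66.7%, against 28.3% and 25.5% of all genes.

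Of 14 matrix protease and inhibitor genes, 8 rose, 3 fell and 3 were not called. Mmp3, encoding stromelysin-1, went from 65.5, 81.8 and 59.1 to 1764, 490 and 2298 (log2 difference 4.21, SE 0.42, adjusted p = 1.35e-05), with LPS array 2 lowest, and Mmp13, a collagenase, from 1980, 4024 and 2634 to 10150, 11060 and 10460 (log2 difference 1.94, SE 0.21, adjusted p = 2.54e-05). Mmp19 fell from 1523, 718 and 1599 to 418, 177 and 437 (log2 difference -1.92, SE 0.36, adjusted p = 0.00118). Timp2, a metalloproteinase inhibitor, fell from 4843, 5815 and 4563 to 2246, 3206 and 2555 (log2 difference -0.94, SE 0.14, adjusted p = 0.000266). Of 13 adhesion and integrin genes, 7 rose, 3 fell and 3 were not called. Itga4, an integrin that binds VCAM-1, rose from 1215, 2031 and 1558 to 3964, 4874 and 3507 (log2 difference 1.38, SE 0.20, adjusted p = 0.000198). Selplg, the P-selectin ligand, fell from 4401, 4693 and 4318 to 1745, 2160 and 2099 (log2 difference -1.17, SE 0.10, adjusted p = 3.9e-06).

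Several receptors of the macrophage surface, not all of them inhibitory, fell by large steps. Of 16 CD300 and inhibitory receptor genes, 2 rose, 8 fell and 6 were not called, with a median of -0.80, the lowest of the 47 lists. Cd300lb read 1067, 1157 and 960 and then 62.3, 78.6 and 76.3 (log2 difference -3.88, SE 0.10, adjusted p = 1.52e-09). Nfam1, an activating receptor with an ITAM, read 2193, 2491 and 2160 and then 128, 413 and 103, with LPS array 2 highest of the treated arrays (log2 difference -3.69, SE 0.44, adjusted p = 4.25e-05). Cd300a, an inhibitory receptor for phosphatidylserine, read 1155, 1966 and 1057 and then 170, 329 and 166 (log2 difference -2.67, SE 0.28, adjusted p = 1.55e-05). The members that rose were Pilra (0.58, SE 0.09, adjusted p = 0.000371) and Pilrb1 (0.72, SE 0.15, adjusted p = 0.00296), paired receptors with opposite signalling. Of 6 Fc receptor genes, 1 fell, Fcgr3 (6719, 5319 and 6968 to 2710, 1905 and 3100; log2 difference -1.32, SE 0.16, adjusted p = 4.6e-05), and none rose.

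Of 18 G-protein signalling and chemoattractant receptor genes, 4 rose, 7 fell and 7 were not called. Rgs2, which shortens signalling by Gq, fell from 1928, 1216 and 2523 to 226, 74.3 and 212 (log2 difference -3.56, SE 0.36, adjusted p = 1.43e-05). Rgs18 fell from 404, 457 and 561 to 93.0, 100 and 88.4 (log2 difference -2.32, SE 0.12, adjusted p = 1.66e-07). Cxcr4, the receptor for CXCL12, fell from 2872, 2730 and 2333 to 406, 276 and 254 (log2 difference -3.11, SE 0.15, adjusted p = 7.85e-08). Ptger4, a prostaglandin E2 receptor, fell from 791, 733 and 954 to 298, 250 and 324 (log2 difference -1.51, SE 0.16, adjusted p = 2.23e-05). Without LPS array 3, 2 of these genes rose. Ccrl2, an atypical receptor that presents chemerin, rose instead, from 732, 1074 and 622 to 7870, 8445 and 8605 (log2 difference 3.40, SE 0.24, adjusted p = 1.09e-06).

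Of 15 scavenger and uptake receptor genes, 3 rose (20%), 4 fell (26.7%) and 8 were not called, near the shares of all genes (21.9% and 23.8%). Scarb1, a lipoprotein receptor, fell from 2601, 1879 and 2538 to 1131, 508 and 1109 (log2 difference -1.43, SE 0.25, adjusted p = 0.000702). Stab1 fell from 974, 960 and 839 to 293, 357 and 275 (log2 difference -1.59, SE 0.23, adjusted p = 0.000159). Axl, a receptor for apoptotic cells, rose from 1229, 910 and 2181 to 3227, 2975 and 4291 (log2 difference 1.36, SE 0.27, adjusted p = 0.00184). Of 14 complement genes, 1 rose, 2 fell and 11 were not called. C3ar1 fell from 8355, 8228 and 9923 to 2201, 2478 and 3771 (log2 difference -1.68, SE 0.18, adjusted p = 1.86e-05). C5ar1, the receptor for the other anaphylatoxin, rose from 2663, 2312 and 2609 to 3625, 5484 and 3720 (log2 difference 0.73, SE 0.15, adjusted p = 0.0019). The list's median of -0.16 became 0.06 under 75th percentile centring, and the counts were unstable. The number that fell was 5 without LPS array 3 or untreated array 2, 4 without both arrays numbered 2, and 1 without LPS array 2, untreated array 1 or untreated array 3. With the replicate block within genotype, 4 rose and 6 fell, and 2 rose without LPS array 1, untreated array 2, untreated array 3, wild-type untreated array 1 or wild-type untreated array 3.

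Lineage and identity genes moved in both directions. Of 15 lineage factor and growth receptor genes, 1 rose, 7 fell and 7 were not called (median -0.34), and of 14 genes typical of large peritoneal macrophages, 2 rose, 6 fell and 6 were not called (median -0.31). Under 75th percentile centring, 3 of the latter rose and 2 fell (median -0.10), and 1 rose without LPS array 1, LPS array 2 or both arrays numbered 2. The 1 lineage gene that rose lost its call without LPS array 1, LPS array 3 or untreated array 2. Csf3r, the G-CSF receptor, fell from 3381, 3237 and 3603 to 937, 1043 and 1125 (log2 difference -1.72, SE 0.11, adjusted p = 6.41e-07). Gata6, the factor that defines large peritoneal macrophages, read 1907, 1783 and 1933 and then 1570, 726 and 1240 (log2 difference -0.74, SE 0.23, adjusted p = 0.0226). Its call was lost without LPS array 2 or untreated arrays 1 and 3 (adjusted p up to 0.0598), under 75th percentile centring (adjusted p = 0.0522), in a fit of the 6 knockout arrays alone and without both arrays numbered 2 (adjusted p = 0.0706). Icam2 rose from 488, 548 and 596 to 1742, 848 and 1863 (log2 difference 1.37, SE 0.23, adjusted p = 0.000518).

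Lysosomal genes fell in most members. Of 20 lysosome and V-ATPase genes, 0 rose, 15 fell and 5 were not called (median -0.56, range -2.97 to 0.15). Atp6v0d2, a macrophage subunit of the proton pump, read 1828, 3943 and 1628 and then 161, 775 and 196 (log2 difference -2.97, SE 0.57, adjusted p = 0.00135), with arrays numbered 2 highest in both groups. Atp6v0a1, another pump subunit, fell from 2105, 3065 and 2308 to 646, 992 and 689 (log2 difference -1.69, SE 0.19, adjusted p = 2.94e-05). Npc1, which exports cholesterol from lysosomes, fell from 2992, 3833 and 3093 to 1090, 1588 and 1127 (log2 difference -1.40, SE 0.15, adjusted p = 1.84e-05). Tfeb, which drives lysosomal genes, fell from 535, 613 and 452 to 244, 248 and 208 (log2 difference -1.19, SE 0.11, adjusted p = 7.13e-06). The letters TCACGTGA, the core of the element TFEB binds, were in 4 of the 15 lysosomal genes with a promoter window, against 1.25% of all genes. Of 15 autophagy genes, 0 rose, 10 fell and 5 were not called (median -0.59). Atg5 fell from 723, 724 and 774 to 293, 347 and 283 (log2 difference -1.27, SE 0.12, adjusted p = 8.49e-06). The kinase gene Ulk2 fell from 458, 430 and 575 to 220, 195 and 178 (log2 difference -1.29, SE 0.12, adjusted p = 9.77e-06).

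Sterol and fatty acid metabolism fell alongside. Of 18 sterol synthesis genes, 0 rose, 12 fell and 6 were not called (median -0.62). LPS array 2 was the lowest treated array for 16 of them, against 6144 of the 19938 genes tested. Dhcr7, which makes cholesterol from its last precursor, read 442, 476 and 457 and then 117, 115 and 138 (log2 difference -1.90, SE 0.10, adjusted p = 1.55e-07). Lss, the lanosterol synthase, read 602, 657 and 663 and then 203, 193 and 254 (log2 difference -1.57, SE 0.19, adjusted p = 4.5e-05). Mvd, of the mevalonate steps, read 783, 796 and 610 and then 287, 288 and 249 (log2 difference -1.40, SE 0.15, adjusted p = 2.38e-05). Without both arrays numbered 2, 9 of the 18 fell. The sterol element letters TCACNCCAC were in 1 of 15 members with a window, against 1.2% of all genes.

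Of 15 lipid export and LXR target genes, 1 rose, 8 fell and 6 were not called (median -0.39). Acaca, which starts fatty acid synthesis, fell from 1378, 1683 and 1604 to 391, 593 and 405 (log2 difference -1.77, SE 0.15, adjusted p = 4.18e-06). Scd2, a fatty acid desaturase, fell from 1457, 894 and 1195 to 394, 103 and 255 (log2 difference -2.41, SE 0.45, adjusted p = 0.00112). Abcg1, a cholesterol exporter, fell from 1363, 1861 and 1614 to 566, 880 and 611 (log2 difference -1.25, SE 0.16, adjusted p = 8.79e-05). The member that rose was Ch25h, the cholesterol 25-hydroxylase of the interferon response, from 70.6, 96.4 and 127 to 1165, 5338 and 2854 (log2 difference 4.78, SE 0.54, adjusted p = 3.16e-05); among its treated arrays, number 2 was highest. Of 14 fatty acid oxidation genes, 2 rose, 9 fell and 3 were not called (median -0.47). Acadm, the medium-chain dehydrogenase, fell from 1185, 988 and 1147 to 369, 299 and 393 (log2 difference -1.65, SE 0.18, adjusted p = 2.32e-05). Ppargc1b, a coactivator of mitochondrial genes, fell from 325, 320 and 282 to 103, 100 and 113 (log2 difference -1.55, SE 0.11, adjusted p = 1.28e-06), while Acsl4 rose (0.65, SE 0.12, adjusted p = 0.00084).

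Citric acid cycle and respiratory chain genes fell too. Of 15 citric acid cycle genes, 1 rose, 12 fell and 2 were not called (median -0.52). Only 1 member fell at least 2-fold: Idh1, which encodes the cytosolic and not the mitochondrial isocitrate dehydrogenase. Idh1 read 5058, 3799 and 4467 and then 1043, 1155 and 1089 (log2 difference -2.01, SE 0.13, adjusted p = 5.88e-07). Sdhb, a succinate dehydrogenase subunit, read 1562, 1607 and 1354 and then 855, 838 and 770 (log2 difference -0.87, SE 0.09, adjusted p = 1.78e-05). Idh2, the mitochondrial enzyme, read 1344, 1762 and 1171 and then 695, 831 and 659 (log2 difference -0.95, SE 0.14, adjusted p = 0.000161). Citrate synthase gene Cs was the member that rose, from 2927, 3100 and 2800 to 4273, 4472 and 3973 (log2 difference 0.53, SE 0.09, adjusted p = 0.000424). Of 20 respiratory chain genes, 1 rose, 12 fell and 7 were not called (median -0.31); the number that fell was 7 without untreated array 2, 7 without both arrays numbered 2 and 3 under 75th percentile centring. The 1 gene that rose lost its call without LPS array 1 or untreated array 3. The complex I subunit gene Ndufb5 fell from 1057, 1046 and 982 to 654, 661 and 696 (log2 difference -0.62, SE 0.07, adjusted p = 2.57e-05).

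The glycolysis and hypoxia list also leaned lower: of 16, 2 rose, 8 fell and 6 were not called (median -0.24). Hexokinase gene Hk2 rose from 922, 761 and 1133 to 2172, 1048 and 2617 (log2 difference 0.97, SE 0.27, adjusted p = 0.0117), with its groups overlapping through LPS array 2. Its call was lost in a fit of the 6 knockout arrays alone. Pfkp, the platelet-type phosphofructokinase, rose from 940, 963 and 963 to 1436, 1697 and 1584 (log2 difference 0.71, SE 0.10, adjusted p = 0.000118). The hypoxia-induced genes Bnip3 (3009, 2202 and 4426 to 1637, 730 and 1524; log2 difference -1.34, SE 0.29, adjusted p = 0.00295) and Egln3 (-1.35, SE 0.30, adjusted p = 0.00355) fell, as did Pfkfb3 (1700, 785 and 1869 to 636, 232 and 571; log2 difference -1.63, SE 0.38, adjusted p = 0.00466), which makes the activator of phosphofructokinase. Untreated array 3 gave the highest untreated reading for 15 of the 16 genes and LPS array 2 the lowest treated reading for 12. Among the 19938 genes tested this held for 5806 and 6144. Of 15 solute carrier genes, 8 rose, 5 fell and 2 were not called. Slc15a3, a lysosomal peptide transporter, rose from 3475, 3846 and 3174 to 7868, 6318 and 8382 (adjusted p = 1.16e-05). Slc36a1, a lysosomal amino acid transporter, fell from 1850, 1883 and 1988 to 340, 383 and 261 (log2 difference -2.56, SE 0.17, adjusted p = 8.99e-07).

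Growth and death genes were mixed. Of 17 cell cycle control genes, 4 rose (23.5%), 7 fell (41.2%) and 6 were not called. Of 19 replication and mitosis genes, 3 rose (15.8%), 6 fell (31.6%) and 10 were not called. The shares of all genes were 21.9% and 23.8%. Cyclin gene Ccnd2 rose from 339, 188 and 325 to 3039, 1557 and 3562 (log2 difference 3.22, SE 0.32, adjusted p = 1.31e-05). Mki67, the proliferation antigen, rose from 374, 212 and 442 to 2369, 1610 and 2405 (log2 difference 2.68, SE 0.27, adjusted p = 1.21e-05). Several replication genes fell: Rrm1, a ribonucleotide reductase subunit, fell from 313, 284 and 362 to 170, 125 and 192 (log2 difference -0.99, SE 0.18, adjusted p = 0.00109). Mcm3, of the replicative helicase, fell from 254, 232 and 228 to 138, 126 and 138 (log2 difference -0.82, SE 0.12, adjusted p = 0.000147). E2f1 fell from 1039, 692 and 567 to 313, 260 and 212 (log2 difference -1.52, SE 0.23, adjusted p = 0.000244). Of 16 apoptosis regulators, 9 rose, 2 fell and 5 were not called. When LPS array 1, LPS array 2, untreated array 1 or untreated array 3 was left out, 1 fell. Cflar, which blocks caspase-8, rose from 686, 591 and 764 to 3024, 3561 and 3051 (log2 difference 2.24, SE 0.13, adjusted p = 3.38e-07). Mlkl, the executor of necroptosis, rose from 534, 404 and 887 to 2291, 1936 and 2920 (log2 difference 2.03, SE 0.32, adjusted p = 0.000329).

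Chromatin and clock genes moved in both directions. Of 17 histone demethylase and chromatin modifier genes, 7 rose, 6 fell and 4 were not called. Kdm6b, an H3K27 demethylase induced by inflammatory signals, rose from 406, 297 and 498 to 1271, 683 and 1009 (log2 difference 1.29, SE 0.22, adjusted p = 0.000539). Setdb2 rose from 104, 118 and 181 to 661, 762 and 812 (log2 difference 2.51, SE 0.44, adjusted p = 0.000719). The deacetylase gene Hdac5 fell from 1063, 1142 and 1073 to 330, 233 and 277 (log2 difference -1.98, SE 0.11, adjusted p = 2.27e-07). Tet3, which oxidises methylcytosine, fell from 638, 653 and 635 to 313, 267 and 224 (log2 difference -1.27, SE 0.15, adjusted p = 4.58e-05). Of 15 clock genes, 1 rose, 5 fell and 9 were not called (median -0.46): the output factor Dbp fell from 1046, 423 and 607 to 178, 193 and 191 (log2 difference -1.78, SE 0.25, adjusted p = 0.000152) and Cry1 rose (0.62, SE 0.15, adjusted p = 0.00499). Without both arrays numbered 2, 2 clock genes rose and 6 fell; 2 rose without LPS array 2 alone, and 3 fell without LPS array 3 or without untreated array 1.

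Several lists had few calls and medians whose sign turned under 75th percentile centring. In these, 12.5% to 26.7% of members rose and 13.3% to 25% fell, against 21.9% and 23.8% of all genes. Of 18 unfolded protein and stress response genes, 4 rose, 4 fell and 10 were not called; the chaperone gene Hspa5 rose from 3231, 4281 and 3411 to 7007, 6877 and 6590 (log2 difference 0.92, SE 0.10, adjusted p = 2.38e-05). Eif2ak3, encoding the sensor PERK, fell from 443, 484 and 486 to 149, 180 and 111 (log2 difference -1.71, SE 0.21, adjusted p = 6.27e-05). Without LPS array 2 or untreated array 3, 2 of these genes rose. Of 15 aminoacyl-tRNA synthetase genes, 4 rose, 3 fell and 8 were not called, and 5 fell without LPS array 2 or both arrays numbered 2. Of 16 ribosome biogenesis genes, 2 rose, 4 fell and 10 were not called, with the RNA polymerase I subunit Polr1a lower (-0.98, SE 0.13, adjusted p = 9.27e-05). Of 15 NRF2 and glutathione genes, 2 rose, 2 fell and 11 were not called; 5 fell without LPS array 2 or both arrays numbered 2, and 6 with the replicate block within genotype. Among them were Txnrd1, a thioredoxin reductase, which rose (0.96, SE 0.23, adjusted p = 0.00563) and Gsr, the glutathione reductase, which fell (-1.0, adjusted p = 0.000229). Of 17 acute-phase, antimicrobial and iron genes, 4 rose, 3 fell and 10 were not called; the number that rose was 1 without untreated array 3 and in the fit of the 6 knockout arrays alone, and 2 without LPS array 2, LPS array 3 or both arrays numbered 2.

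Where the knockout response departed from that of wild-type cells was tested through the interaction, the knockout difference minus the wild-type difference. It was called for 149 genes, 0.747% of those tested, and 126 of these were also called in the knockout response. For most members of the programmes above the interaction was not called, which does not show that the responses were alike. Interactions were ranked only among the 126, with predicted genes passed over. A gene whose response was not called in knockout cells was thus left out of the ranking. Csf2 gave the largest difference of those ranked (interaction -4.78, SE 0.15, adjusted p = 2.62e-08). In wild-type cells Csf2 went from 36.2, 34.7 and 37.1 to 1390, 1269 and 1531 (5.27, SE 0.11, adjusted p = 1.61e-10). In knockout cells it went from 30.7, 32.6 and 31.2 to 38.5, 43.3 and 52.2. Lrrc25, a leucine-rich repeat membrane protein, read 969, 836 and 904 and then 1090, 1160 and 1173 in wild-type cells, but 710, 570 and 750 and then 103, 94.2 and 97.0 in knockout cells (interaction -3.12, SE 0.14, adjusted p = 9.61e-07). Tpbg, the trophoblast glycoprotein, went from 107, 99.9 and 101 to 859, 990 and 725 in wild-type cells and from 90.4, 85.9 and 89.0 to 129, 96.6 and 138 in knockout cells (interaction -2.61, SE 0.19, adjusted p = 0.000109). The call of the small rise of Tpbg in knockout cells was lost without LPS arrays 1 and 3 or untreated array 2 (adjusted p up to 0.0766) and under quantile normalization, while its interaction call was kept in all 12 fits without 1 array. In all 3 the LPS-treated arrays of both genotypes were fully apart.

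Slc11a2, the iron transporter DMT1, changed in opposite directions: it rose from 915, 876 and 779 to 1542, 1369 and 1667 in wild-type cells and fell from 708, 839 and 593 to 222, 301 and 186 in knockout cells (interaction -2.44, SE 0.24, adjusted p = 0.00131). Mertk, a receptor for apoptotic cells, fell from 2786, 2792 and 3038 to 1511, 2088 and 1780 in wild-type cells and rose from 2752, 2791 and 3185 to 4046, 4704 and 4302 in knockout cells (interaction 1.27, SE 0.16, adjusted p = 0.0053). P2ry14, a receptor for UDP-glucose, also fell in wild-type cells (-0.38, SE 0.12, adjusted p = 0.0388) and rose in knockout cells (0.96, SE 0.12, adjusted p = 8.3e-05; interaction 1.34, SE 0.18, adjusted p = 0.00618).

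A further group rose more in knockout cells. Vcam1, the adhesion ligand of integrin α4, reached 2303, 1039 and 3332 in knockout cells from 116, 83.4 and 111, against 239, 315 and 167 in wild-type cells from 87.6, 72.2 and 93.5 (interaction 2.82, SE 0.50, adjusted p = 0.0303). Bmp2, a growth factor of the TGF-β family, reached 804, 1219 and 1009 from 135, 137 and 131, against 274, 301 and 211 from 182, 125 and 132 in wild-type cells (interaction 2.05, SE 0.25, adjusted p = 0.00501). Klf8, a zinc finger factor, reached 399, 459 and 628 from 89.0, 107 and 101, against 131, 163 and 123 from 112, 95.7 and 118 in wild-type cells (interaction 1.95, SE 0.23, adjusted p = 0.00393). The chemokine genes Ccl3 and Cxcl2 read lower in knockout than in wild-type cells before LPS, and by a smaller step after it. Ccl3 read 2183, 1422 and 1606 and then 11510, 13350 and 12570 in knockout cells, and 4282, 4918 and 4862 and then 14690, 15040 and 13910 in wild-type cells (interaction 1.23, SE 0.19, adjusted p = 0.0136). Cxcl2 read 2033, 2017 and 2081 and then 10640, 10620 and 10430, against 3280, 3080 and 3497 and then 11030, 11130 and 10710 (interaction 0.63, SE 0.09, adjusted p = 0.00932). When single arrays were dropped, the Vcam1 interaction lost its call in 9 of 12 fits (largest adjusted p = 0.0955), and was called without both knockout arrays numbered 2 (3.14, adjusted p = 0.00288). The number of interaction calls ranged from 55, without knockout untreated array 1, to 365, without wild-type LPS array 2, when 1 array was left out.

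**Figure D5:**
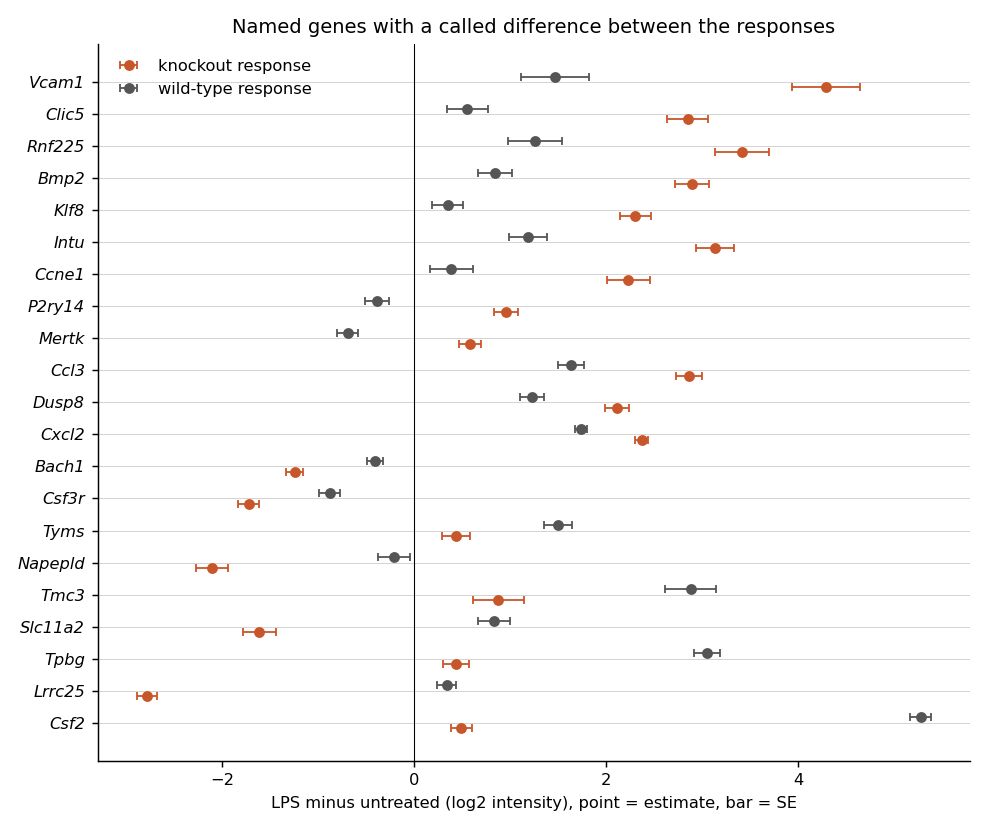
LPS minus untreated log2 intensity in knockout cells (orange) and wild-type cells (grey) for the 21 named genes with a called interaction, with points for the estimates and bars for the SE of the limma fit. Csf2, Tpbg, Tmc3 and Tyms rose less in knockout cells, Slc11a2 and Lrrc25 fell in knockout cells and rose in wild-type cells, and Vcam1, Clic5 and Rnf225 are at the top with larger rises in knockout cells.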

How the data were processed

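RNA of 12 samples was hybridised to 1-colour Affymetrix whole-transcript arrays. The deposited intensity values, 1 per probe set, came, per the submitters' processing notes, from RMA as run by Expression Console 1.1 of Affymetrix, with settings unknown here. Intensities ran from 6.96 to 22642, so log2 was taken with no pseudocount, although values already in log2 had been planned for. GEO's annotation of the platform pairs 21789 of the 35556 probe sets with a single symbol, 1621 with several and 12146 with none; 999 genes had several probe sets and the one of highest mean was kept, leaving 19938 genes. No pair of arrays held identical values.

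The two-sided tests are those of limma 3.58.1 under R 4.3.3, with lmFit and then eBayes on 4 group means over the 12 arrays with 8 residual degrees of freedom, and p-values were adjusted by Benjamini-Hochberg. Tested on simulated data for the knockout LPS response over 19938 genes, the fit called 90% of the 2-fold and 100% of the 4-fold changes, and 8 unchanged genes. The simulated noise was normal and independent between arrays, with 100 genes changed at each size. Same-numbered knockout arrays of the real data were correlated, so these rates need not hold for them.

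The gene lists were chosen with earlier results of these data known, and so support no direction by themselves. Named genes are Nfkbiz, the 20 most raised and 20 most lowered, from each list at most 5 with the largest difference plus called members against the majority, and the 6 largest interactions in each direction among genes also called in the knockout response; predicted genes, pseudogenes and small RNAs were passed over. Genes used to check cell types or arrays that stood apart (Chil1, Hal, Pdpn, Hdc, Cyp11a1, Ephx2, Sparc, Htra1) were added after their values were seen. So were other genes with a called interaction.

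The titles number arrays 1 to 3 in each group. Deviations of same-numbered knockout arrays correlated at 0.32, 0.57 and 0.46, and those of wild-type arrays at -0.07, 0.14 and 0.36. Only the alternative fits with a replicate block took the numbers to pair samples. The main fit did not: its SEs and p-values come from group means alone. Alternatives were quantile, median and 75th percentile scaling, a filter on dim genes, all probe sets, a replicate block, the knockout arrays alone, weights per array, an intensity trend with robust estimation, stricter thresholds and leaving out each array. Added after seeing the data were a block within genotype, a blocked fit of the knockout arrays and leaving out both knockout arrays numbered 2. Promoter windows and coordinates are RefSeq's, on GRCm38.p6.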

Additional observations from a re-analysis of the deposited data

Results flagged for a closer look

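The response to LPS of 21 named genes differed between genotypes by the interaction test of the limma fit, all at adjusted p under 0.05 over the genes tested. The values are the knockout log2 difference minus the wild-type one. The difference was negative for Csf2 (-4.78), Lrrc25 (-3.12), Tpbg (-2.61), Slc11a2 (-2.44), Tmc3 (-2.00), Napepld (-1.89), Tyms (-1.06), Csf3r (-0.85) and Bach1 (-0.84). It was positive for Vcam1 (2.82), Clic5 (2.29), Rnf225 (2.16), Bmp2 (2.05), Klf8 (1.95), Intu (1.95), Ccne1 (1.84), P2ry14 (1.34), Mertk (1.27), Ccl3 (1.23), Dusp8 (0.89) and Cxcl2 (0.63). A negative value need not mean a weaker response: Csf3r fell further in knockout cells, and Lrrc25 and Slc11a2 fell there and rose in wild-type cells. The call was lost when 1 of the 12 arrays was left out in 8 to 10 of the 12 fits for Vcam1 (9), Tmc3 (8), Rnf225 (9), Dusp8 (10), Tyms (9), Ccne1 (8) and Csf3r (9), and in 0 for the other 14. Without both knockout arrays numbered 2 it was lost for Rnf225 (adjusted p = 0.068), Dusp8 (adjusted p = 0.0973), Tyms (adjusted p = 0.0908) and Csf3r (adjusted p = 0.0584).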

How the results depend on the processing

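The count of 9105 called genes became 14386 under 75th percentile centring, 5936 at adjusted p under 0.01 and 1830 where at least 2-fold was also asked. The 4365 genes that rose became 11026 under 75th percentile centring, 2191 with dim genes removed, 2907 in a fit of the 6 knockout arrays alone and 2216 at adjusted p under 0.01. The 1165 that fell at least 2-fold became 711 under 75th percentile centring. The 149 interaction calls became 667 with array weights, 39 at adjusted p under 0.01 and 76 with at least 2-fold. Leaving out 1 array gave 7668 to 9078 calls, 3245 to 4275 higher, 4328 to 4803 lower, 600 to 741 and 1134 to 1208 past 2-fold in each direction, and 55 to 365 interactions.

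With the replicate block, 9052 genes were called and 120 interactions; with the replicate block within genotype, chosen after seeing the data, 9382 and 296. Without both knockout arrays numbered 2, also chosen after seeing the data, 7463 genes and 180 interactions were called. Of the 293 named genes called in the knockout response, 272 to 292 kept their call in each alternative fit, and 274 to 293 when 1 array was left out; no named call reversed. Dim probe sets and 3 arrays a group limit what could be called.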
